A study of Mus musculus with 2 samples.

Results

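The respiratory chain genes of the mouse brain were followed over coronal sections, in both of their genomes. The set held 106 of the 32285 genes in the tables. They were chosen by name alone: every symbol that begins with mt-, Nduf, Uqcr, Atp5, Cox4i, Cox5, Cox6, Cox7 or Cox8, together with Sdha, Sdhb, Sdhc and Sdhd. Of 107 symbols that matched, 1 was left out because its name ends in -ps, the mark of a pseudogene. The set comprised 13 genes of the mitochondrial genome and 93 nuclear genes. The mitochondrial genes encode 7 subunits of complex I, 1 of complex III, 3 of complex IV and 2 of complex V. The nuclear genes comprised 36 of complex I, 8 named as complex I assembly factors, 4 of complex II, 8 of complex III, 20 of complex IV and 17 of complex V.

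RNA was captured on Visium arrays, slides printed with barcoded spots that each take up transcripts from a small patch of tissue holding several cells. There was 1 section from each of 2 mice, and both mice belonged to 1 group. Each mouse expressed hM3Dq, a designer receptor that raises neuronal firing when its ligand clozapine-N-oxide (CNO) is given, and each had received CNO. By genotype label mouse 1 was a wild-type C57BL/6J control and mouse 2 a wild-type control described as CRISPR-Cas9 edited and isogenic. No untreated section was used, so that the receptor and CNO are shared by all values and their effect was not measured. The 10 µm sections were cut 1.9 mm behind bregma, while the injection site lay 4.6 mm behind it. The brains were frozen fresh without perfusion, so blood stayed in the vessels.

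The respiratory chain is a series of protein complexes in the inner mitochondrial membrane. Complexes I and II take electrons from NADH and succinate, complex III passes them to cytochrome c, and complex IV hands them to oxygen. Complexes I, III and IV pump protons as they work, and complex V, the ATP synthase, uses the proton gradient to make ATP. The mitochondrial genome encodes core subunits of complexes I, III, IV and V, whereas complex II and the remaining subunits come from the nucleus. Several complex IV subunits exist in a widely expressed form and in a form restricted to muscle, testis or other tissues. In the brain the chain supplies most of the ATP that neurons spend on ion pumping and synaptic transmission.

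Spots with at least 500 UMIs (unique molecular identifiers, which count captured molecules) were used, 3712 in mouse 1 and 3548 in mouse 2. The median was 7547 UMIs per spot in mouse 1 and 14663 in mouse 2. Spots were placed in 15 areas by the mean score of marker genes that are no members of the set, and 87.0% and 89.7% of the spots could be placed. Of 97 markers, 87 had their highest mean level in the area they marked. The spots were placed by these same markers, so this count describes the placement and is no independent check of it. The exceptions included 3 of 6 markers of the hippocampal neuropil, the least sharply marked area. The sections shared 3369 barcodes, which are array positions and not cells.

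Over the whole section the 13 mitochondrial genes took 13.3% of the UMIs in mouse 1 and 15.4% in mouse 2, and the nuclear members took 5.82% and 5.06%. The mitochondrial share was thus higher in mouse 2 and the nuclear share lower. In the tissue the shares followed anatomical outlines that were alike in both sections, as the maps of share by spot show.

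**Figure D1:**
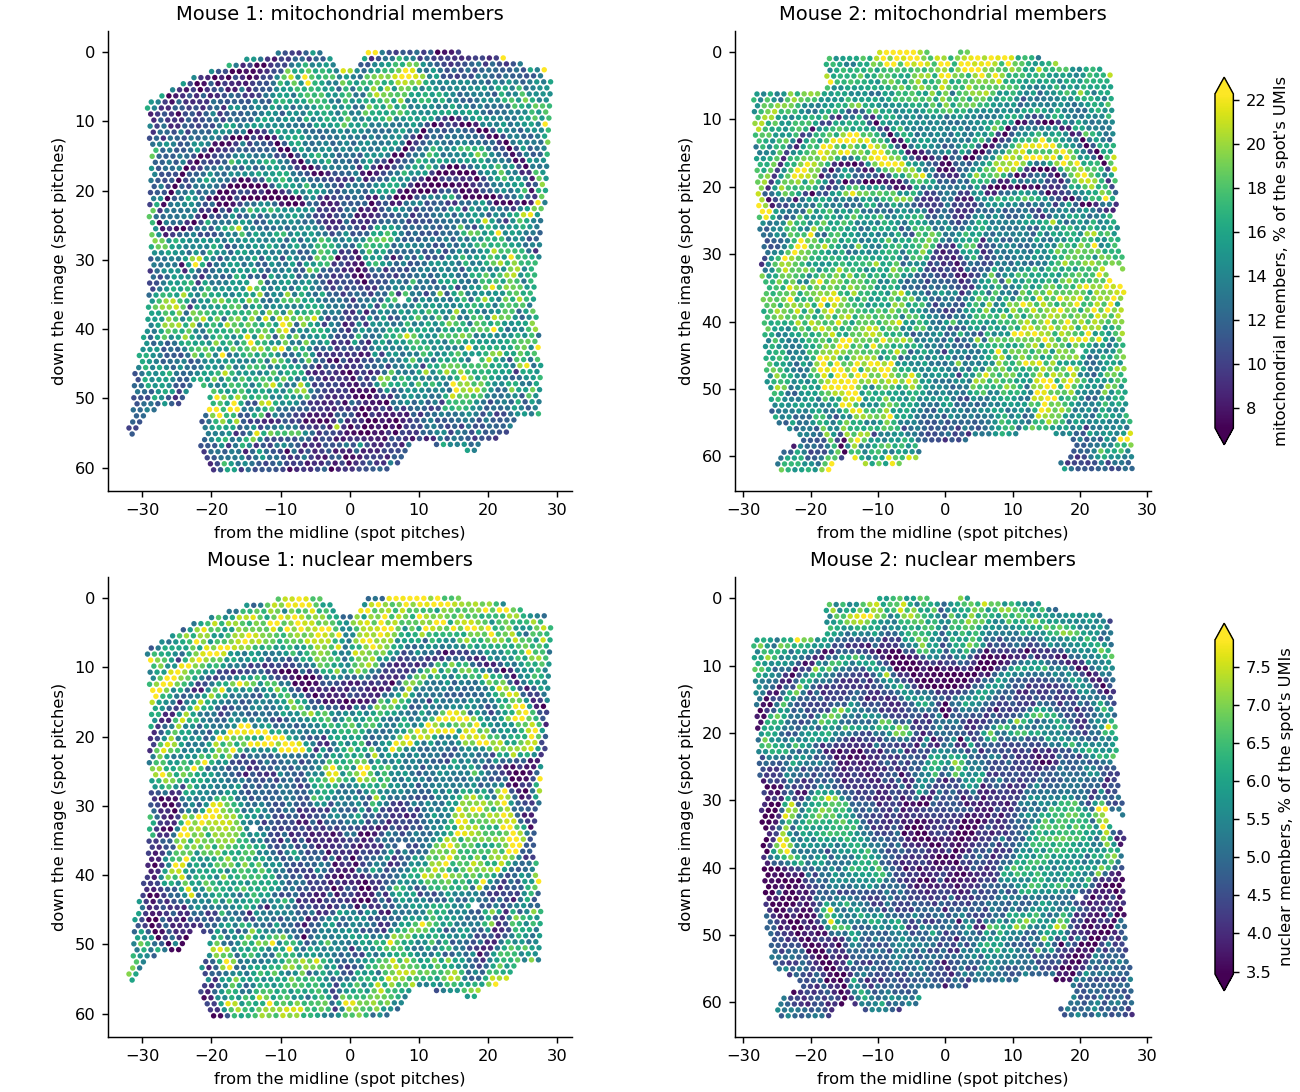
Maps of each section, with 1 point per spot, placed by its distance from the midline and down the image in spot pitches. Colour gives the mitochondrial (top) or nuclear (bottom) share of the spot's UMIs in percent, for mouse 1 (left) and mouse 2 (right). The curved hippocampal cell layers appear low in mitochondrial share, and the white matter appears low in nuclear share.

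The mitochondrial share was highest in the reticular thalamus in both mice. This thin sheet of inhibitory neurons, many of which fire in fast bursts, gave 16.2% in mouse 1 and 18.5% in mouse 2, or 17.3% ± 1.60 (SD, n = 2 mice). Layer 5 of the neocortex, which holds the large projection neurons, followed with 14.9% and 17.3%. White matter had 15.1% and 16.6%. These neighbours in the order were not separated: white matter ranked above layer 5 in mouse 1 and below it in mouse 2.

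The hippocampal cell layers and the choroid plexus had the lowest mean mitochondrial shares. The dentate granule layer, which is packed with small granule cell bodies, had 9.52% and 11.8%, a mean of 10.7% ± 1.60 (SD, n = 2). The CA1 layer had 10.1% and 12.0%, and the CA2/CA3 layer 11.2% and 12.6%. The choroid plexus, the epithelium that secretes cerebrospinal fluid, had 11.9% and 11.7%. It was the lowest area in mouse 2, where the dentate granule layer was the lowest in mouse 1, and the only area of the 15 in which mouse 2 lay below mouse 1. The remaining areas lay between, with the thalamus at 14.1% and 15.8% and the hypothalamus at 11.5% and 14.4%. The ranks of the 15 areas in the mice had a Spearman's rho of 0.81, given as a description because areas of 1 section share a library.

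The nuclear share gave another order. Layer 5 was first with 6.76% and 6.07%, and the reticular thalamus second with 6.77% and 5.96%; the order of this pair differed between the mice. The dentate granule layer, with the lowest mean mitochondrial share, had a nuclear share of 6.70% and 5.55%, next after this pair in mouse 1 but behind the CA2/CA3 layer and the upper layers of the neocortex as well in mouse 2. White matter, among the highest for the mitochondrial genes, was lowest for the nuclear genes in both mice, with 4.54% and 4.08%. The ranks of the areas in the mice had a rho of 0.96. Within every area the nuclear share was lower in mouse 2.

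The ratio of mitochondrial to nuclear UMIs therefore separated these areas. It was 3.31 and 4.06 in white matter, the highest in both mice. It was 1.42 and 2.12 in the dentate granule layer, the lowest in both. The CA1 layer at 1.61 and 2.22 and the CA2/CA3 layer at 1.75 and 2.24 came next from the bottom. In a spot that mixes cells, fewer cells of a type and less RNA per cell cannot be told apart.

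**Figure D2:**
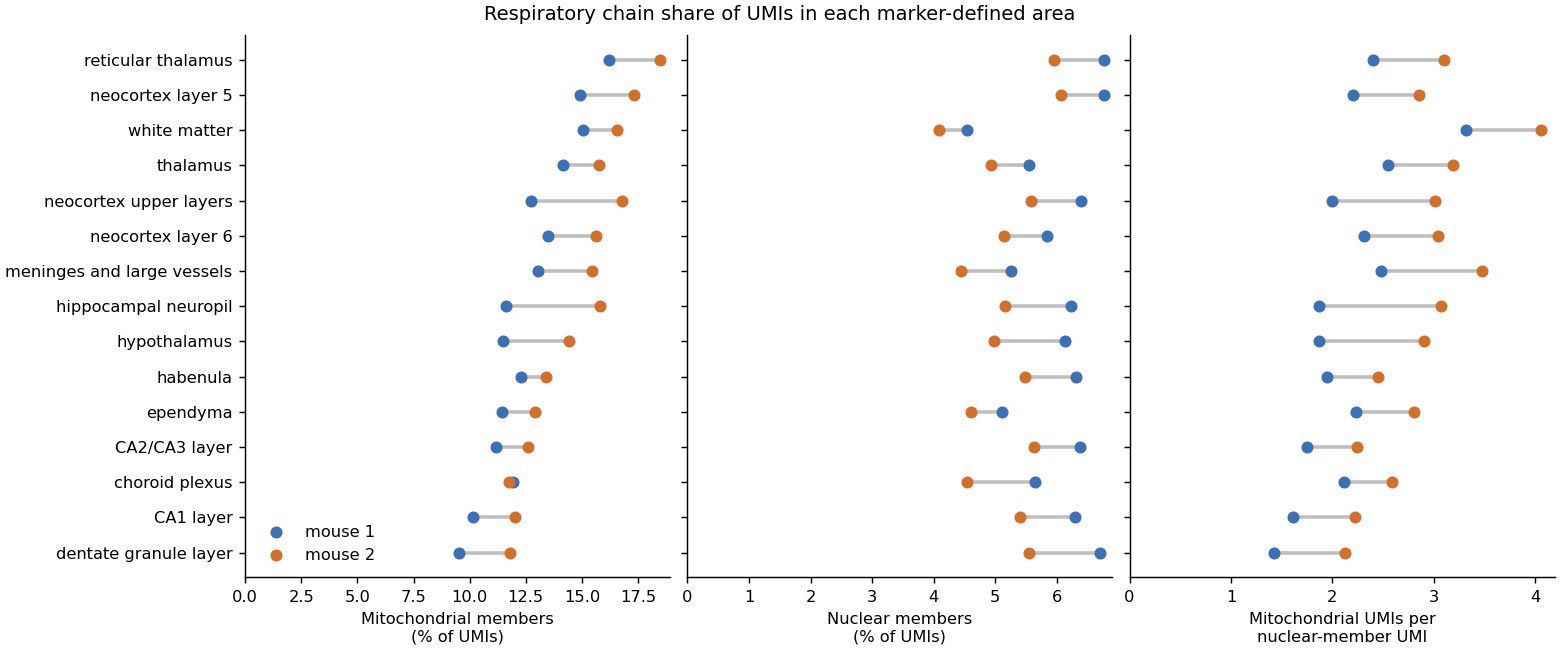
Mitochondrial share, nuclear share and their ratio in each of the 15 marker-defined areas, on linear axes, with 1 point per mouse (blue, mouse 1; orange, mouse 2). White matter combines a high mitochondrial share (15.1% and 16.6%) with the lowest nuclear share (4.54% and 4.08%), and the dentate granule layer combines a low mitochondrial share (9.52% and 11.8%) with a nuclear share of 6.70% and 5.55%.

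The complexes were also summed one by one. Mitochondrial transcripts of complex IV, the largest class, took 8.90% and 9.62% of UMIs in the reticular thalamus and 5.23% and 5.97% in the dentate granule layer. Those of complex I took 3.70% and 4.64% against 2.15% and 2.97% in the same areas. Among nuclear genes, complex I took 1.94% and 1.76% in layer 5 but 1.34% and 1.22% in white matter. Nuclear complex V genes took 1.89% and 1.71% in layer 5 against 1.20% and 1.08% in white matter. Complex II, which is also an enzyme of the citric acid cycle, was highest in the habenula at 0.0816% and 0.0937% and lowest in white matter at 0.0582% and 0.0599%.

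Single mitochondrial genes varied little between areas. Their highest area exceeded their lowest by a median of 1.69-fold, from 1.35-fold for mt-Nd3 to 2.45-fold for mt-Atp8. The reticular thalamus was highest for 7 of the 13, in both mice for each of the 7. These were mt-Nd1, mt-Nd4, mt-Cytb, mt-Co1, mt-Co2, mt-Co3 and mt-Atp6. The hippocampal neuropil was highest for 4 (mt-Nd3, mt-Nd5, mt-Nd6 and mt-Atp8), and white matter for mt-Nd2 and mt-Nd4l. Both mice gave this same highest area for 2 of the 4 neuropil genes and for 0 of the 2 white matter genes. mt-Co1, the catalytic subunit of complex IV, had 38913 and 39400 CPM (UMIs per 1000000) in the reticular thalamus against 22316 and 23198 in the dentate granule layer, with no overlap between the areas. In the mitochondrial genome mt-Atp8 overlaps mt-Atp6, mt-Nd4l overlaps mt-Nd4, and mt-Nd6 overlaps mt-Nd5 on the opposite strand, so the split of UMIs within these pairs is uncertain.

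Of the 93 nuclear members, 85 had at least 2000 UMIs in the areas, and their highest area exceeded their lowest by a median of 1.71-fold. The highest area was the reticular thalamus for 26 of them, layer 5 for 13, the habenula for 11, the dentate granule layer for 11 and the thalamus for 8, by the mean of the mice. Each mouse alone gave that area for 17 of the 26, 5 of the 13, 8 of the 11, 7 of the 11 and 6 of the 8. The lowest area was white matter for 50 and the choroid plexus for 20. Cox6a2, a complex IV subunit known from heart and skeletal muscle, had the widest range of the 85 at 9.04-fold. Members with fewer UMIs, among them several tissue-restricted forms, are described below by their levels.

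Areas were compared with edgeR's quasi-likelihood test on UMIs summed per mouse and area, with the mouse as a term and p-values adjusted by Benjamini-Hochberg over 12713 genes. A member is called higher or lower where the adjusted p is under 0.05. Levels are in CPM, a gene's UMIs scaled to 1000000 UMIs in the area, whereas log2 differences also use TMM factors, which rescale libraries so that most genes do not differ. A rise or fall is thus relative to the other genes of the area. Of the 106 members, 104 were tested; Cox7b2, with 62 and 144 UMIs, and Cox8c, with 0 and 1, were too scarce. The comparisons reuse the thalamus and the neocortex as second area, so those that share one are not independent.

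The forms of complex IV subunits that are restricted to particular tissues gave the largest differences between areas. Cox8b, known from heart, muscle and brown fat, stood at 238 CPM in the choroid plexus of mouse 1 and 156 in that of mouse 2. In the neocortex it stood at 5.18 and 4.17. The choroid plexus lay far above the neocortex in both mice, a log2 difference of 5.62 ± 0.20 (SE) or 49.2-fold, with an adjusted p of 1.3e-34. The choroid plexus held 194 of 339 Cox8b UMIs in the section of mouse 1 and 154 of 342 in that of mouse 2, from 71 and 52 spots. Ependyma, the lining of the ventricles that the plexus hangs into, had 11.4 and 15.5, near the reticular thalamus at 11.9 and 12.4.

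Cox6b2, a form known from testis, had 149 and 54.6 CPM in the choroid plexus and 6.68 and 4.22 in the neocortex. Mouse 1 was well above mouse 2 in the plexus, and both were above every neocortical value. The log2 difference was 4.35 ± 0.26 (SE; 20.4-fold, adjusted p = 8.6e-23). Cox7a1, a heart and muscle form, had 95.5 and 48.5 against 19.2 and 14.8, a log2 difference of 2.21 ± 0.21 (adjusted p = 3.9e-14). Cox6a2 went the other way. It had 15.9 and 11.1 CPM in the plexus and 56.5 and 46.0 in the neocortex, 3.24-fold lower (log2 difference -1.69 ± 0.30, adjusted p = 2.8e-06).

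The widely expressed partners of these forms differed little. Cox8a had 1420 and 1040 CPM in the choroid plexus against 1277 and 1228 in the neocortex, and the groups overlapped (log2 difference 0.09 ± 0.09, adjusted p = 0.47). Cox6b1 was lower in the plexus by a log2 difference of -0.25, Cox7a2 by -0.24 and Cox6a1 by -0.23, each called; these 3 calls were lost without the mouse term.

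**Figure D3:**
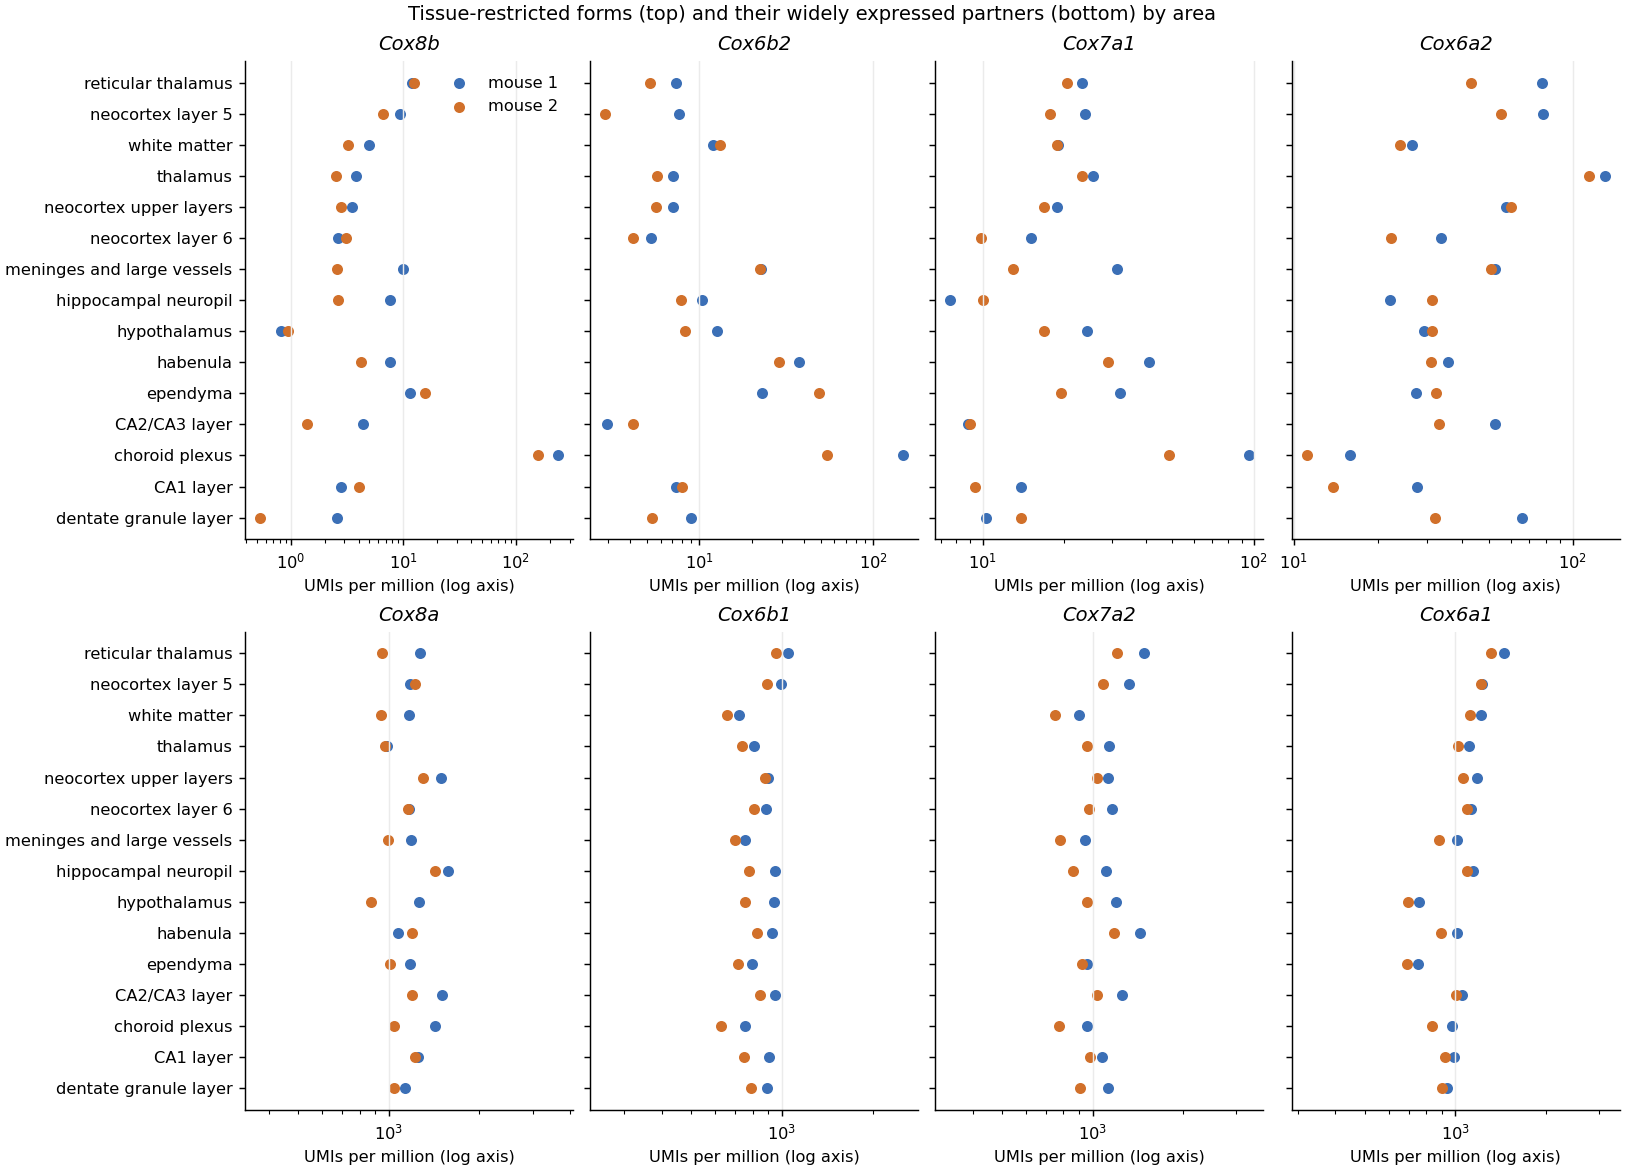
Levels of 4 tissue-restricted complex IV subunits (top) and of their widely expressed partners (bottom) in the 15 areas, in CPM on log axes, with 1 point per mouse. Cox8b, Cox6b2 and Cox7a1 peak in the choroid plexus and Cox6a2 in the thalamus (130 and 114), while Cox8a, Cox6b1, Cox7a2 and Cox6a1 span a narrow range.

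Promoters of Cox8b and of its partner Cox8a are shown because they are the pair whose levels differed most, and that of Cox6a1 because it carries more than 1 site of a regulator of respiratory genes. Each runs from 250 bases before the annotated start to 50 bases after it and is read along the gene's strand (RefSeq, GRCm38.p6). Capitals mark matches to the motifs searched. The Cox8b window (chr7:140900397-140900696, minus strand) holds TATAAA, the TATA motif, at position 255 of the window, 4 bases after the annotated start. The Cox8a window (chr19:7217567-7217866, minus strand) holds the GABP motif CCGGAAGT, here on the opposite strand, at positions 245 and 282. These lie 6 bases before and 31 bases after the annotated start. The Cox6a1 window (chr5:115348909-115349208, minus strand) holds the NRF-1 motif, GCGCA and GCGC with 1 base between, at positions 89 and 134.
Cox8b: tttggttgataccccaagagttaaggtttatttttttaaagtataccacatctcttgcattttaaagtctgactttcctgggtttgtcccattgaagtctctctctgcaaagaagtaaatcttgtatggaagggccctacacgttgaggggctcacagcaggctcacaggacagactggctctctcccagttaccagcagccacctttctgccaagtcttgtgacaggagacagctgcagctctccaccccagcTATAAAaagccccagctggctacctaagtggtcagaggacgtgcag
Cox8a: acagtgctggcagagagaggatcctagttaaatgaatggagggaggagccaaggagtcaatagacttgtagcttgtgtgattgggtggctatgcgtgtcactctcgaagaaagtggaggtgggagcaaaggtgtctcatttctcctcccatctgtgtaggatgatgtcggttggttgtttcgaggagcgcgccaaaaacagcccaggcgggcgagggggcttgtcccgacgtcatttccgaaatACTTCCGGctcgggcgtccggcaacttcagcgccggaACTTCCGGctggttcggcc
Cox6a1: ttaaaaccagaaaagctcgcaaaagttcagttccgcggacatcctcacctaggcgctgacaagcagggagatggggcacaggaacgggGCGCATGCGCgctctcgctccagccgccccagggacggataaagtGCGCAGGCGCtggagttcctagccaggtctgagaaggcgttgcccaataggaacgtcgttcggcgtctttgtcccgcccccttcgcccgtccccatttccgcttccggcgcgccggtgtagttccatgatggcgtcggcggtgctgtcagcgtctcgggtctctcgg

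RefSeq promoter windows were held for 76 of the members. NRF-1, a nuclear respiratory factor, had its motif on either strand in 19 of them (25.0%), against 5.19% of all 27025 genes with such windows. The GABP motif was in 5 members (6.58%, against 4.31% of genes). The ERR motif TCAAGGTCA was in 2 (2.63% against 0.466%), and the MEF2 motif, a muscle element of CTA and TAG with 4 bases between, was in 2 (2.63% against 4.23%). The TATA motif on the gene's strand was in 3 members (Cox8b, Ndufa3 and Ndufs7; 3.95% against 9.77%). The windows of Cox7a1 and Cox6b2 held none of these letters. A match describes the letters and no measured binding.

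Across all members, the choroid plexus and neocortex differed in both directions. Of 104 members tested, 17 were higher and 41 lower in the plexus, against 43.0% of all 12713 genes tested that were called in either direction (23.6% higher and 19.4% lower). All 17 that were higher were nuclear, and 6 of the 13 mitochondrial genes were lower, mt-Co1 by 0.42 ± 0.08 on the log2 scale (25075 and 22464 against 33691 and 35918 CPM). Sdhc, a membrane anchor of complex II, had 184 and 154 CPM against 91.0 and 99.5 (log2 difference 0.93 ± 0.11, adjusted p = 1.9e-10). Atp5g1, a gene for the rotor ring subunit of ATP synthase, had 1070 and 768 against 640 and 629. Lower members included Ndufb9 at -0.69 and Cox5b at -0.57. Sdhd was called higher at 0.41 ± 0.15 but was lower in the plexus of mouse 2 alone, by -0.12.

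Composition moved with this comparison. All 8 choroid epithelium markers were higher in the plexus, where they took 11.5% and 11.2% of UMIs against 0.0157% to 0.0283% in neocortical areas. These 8 are also the markers that defined the area, so their rise follows from how the plexus was drawn. All 5 blood genes were higher, at 0.289% in mouse 1 and 2.42% in mouse 2, and all 10 neuron markers were lower. The part of blood and of neuron loss in the members' differences was not tested. Scaling by library totals alone gave 11 members higher and 61 lower, since it moved the median of all genes from 0.02 to -0.10.

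**Figure D4:**
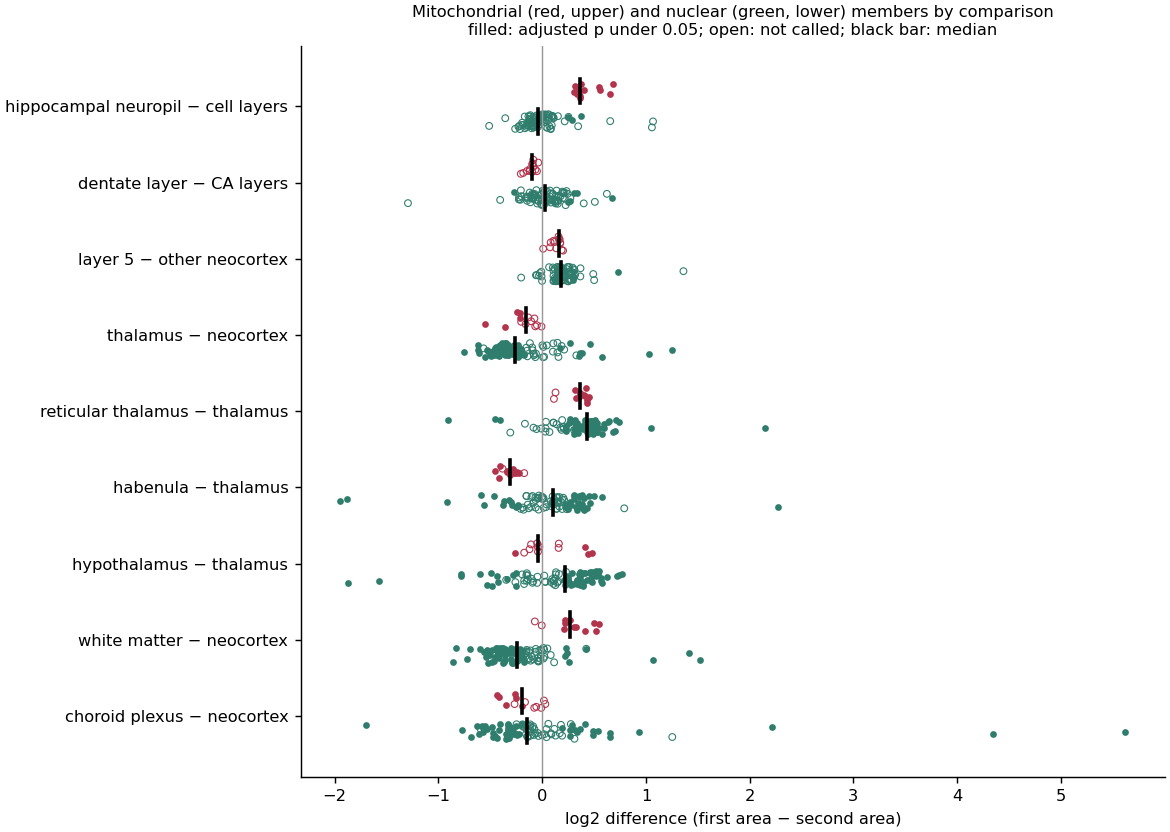
Log2 difference of each tested member in 9 comparisons between areas, first area minus second area, on a linear axis. Red points (upper strip) are mitochondrial genes and green points (lower strip) nuclear genes; filled points had an adjusted p under 0.05, open points did not, and black bars are medians. The medians of the strips lie on opposite sides of 0 in white matter (0.26 and -0.25) and in the habenula (-0.31 and 0.11).

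Within the hippocampus the question was whether the layers of cell bodies differ from the neuropil, the zones of dendrites, axons and glia between them. All 13 mitochondrial genes were higher in the neuropil, whereas 3 of 91 nuclear members were (Cox8a, Cox6a1 and Ndufb9) and none was lower. Over all genes tested, 2.67% were called in either direction, 2.2% higher and 0.472% lower. The median log2 difference was 0.37 for the mitochondrial genes and -0.04 for the nuclear members, beside 0.01 for all genes. It was 0.25 for the mitochondrial genes in mouse 1 and 0.53 in mouse 2.

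mt-Atp8, a small ATP synthase subunit, had 1029 and 1387 CPM in the neuropil and 754 and 825 in the cell layers (log2 difference 0.69 ± 0.08, adjusted p = 2.7e-08). mt-Nd5, a proton-pumping subunit of complex I, had 1626 and 2146 against 1249 and 1445 (0.56 ± 0.07, adjusted p = 7.0e-07). mt-Co1 had 26675 and 31924 against 23818 and 23927 (0.37 ± 0.07, adjusted p = 0.00093). For these 3 genes both neuropil values lay above both cell-layer values. mt-Nd6, the complex I gene read from the other strand of the mitochondrial genome, had 45.6 and 87.0 against 28.6 and 59.3. It was higher in the neuropil within each mouse but the areas overlapped between mice (0.65 ± 0.13, adjusted p = 0.0015). In the fit without the mouse term, 2 of the 13 were called. With areas taken from expression clusters in place of marker scores, all 13 were higher again.

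Of the nuclear members, Cox8a had 1567 and 1427 CPM in the neuropil against 1294 and 1152 in the cell layers (0.37 ± 0.09, adjusted p = 0.0074). Cox6a1 had 1148 and 1091 against 992 and 943 (0.28 ± 0.07, adjusted p = 0.0094). Both are subunits of complex IV. No member of complex II, III or V was called among the nuclear genes. Scaling by library totals alone kept the 13 mitochondrial calls and gave 2 nuclear members higher and 6 lower. Areas taken from clusters gave 21 members higher, the 13 mitochondrial genes among them, and 38 lower, all nuclear. The count of nuclear members thus depends on how the areas were drawn. The share of all genes called with these other scalings and areas is not given here, and the 2.67% does not apply to them.

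Other quantities moved along. Astrocyte markers were higher in the neuropil for 6 of 8, with a summed share of 0.265% and 0.286% against 0.196% to 0.230% in the cell layers, and microglia markers for 4 of 8. Of 6 RNAs retained in the nucleus, 1 was lower. Neuropil spots held a median of 5256 and 11300.5 UMIs, less than the medians of the CA1 layer (5943 and 13378.5) and of the dentate granule layer (6842.5 and 16986). Their part in the difference was not tested.

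Between the cell layers no mitochondrial gene was called. The count was 0 of the 13 between the dentate granule layer and the CA layers (edgeR; 2 at an unadjusted p under 0.05; DESeq2 also 0), and their differences ran from -0.21 to -0.04. Areas taken from clusters gave 4 of the 13 lower in the dentate layer. Among nuclear members 5 were higher in the dentate layer and 1 lower, against 10.3% of all genes called in either direction (5.58% higher and 4.74% lower). Uqcrb, a complex III subunit, had 878 and 698 against 684 and 579 CPM (0.33 ± 0.08, adjusted p = 0.0039). The others higher were Cox6a2 (0.67 ± 0.22, adjusted p = 0.039), Cox7a2l, which takes part in joining complexes III and IV, Atp5l and Cox6c. Ndufa12 of complex I was lower at -0.27. Without the mouse term none of the 6 was called.

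In the neocortex, layer 5 was set against the upper layers and layer 6 after its high shares had been seen. All 13 mitochondrial genes and 83 of 91 nuclear members had a positive difference, 12 and 80 of them in both mice. These directions largely restate the shares that led to the comparison, and the same counts over all genes are not given here. The differences were small, with medians of 0.16 and 0.18 beside 0.00 for all genes. In the fit over all areas 4 were called, all higher in layer 5, against 0.802% of all genes in either direction (0.543% higher and 0.26% lower). These were Cox6a2 (78.2 and 55.6 against 45.7 and 41.2 CPM; 0.73 ± 0.18, adjusted p = 0.022), Atp5f1, Cox5a and Cox7b. With the libraries of these 3 layers alone, 58 of 100 members tested were called and all were higher. The share of all genes called in that fit is not given here, and the 0.802% does not apply to it. Of 5 markers of fast-spiking interneurons, 2 were higher in layer 5, and their part was not tested.

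The thalamus relays sensory and motor signals to the neocortex, and its members were mostly lower than those of the neocortex. In the thalamus 9 members were higher and 62 lower, against 44.3% of all genes called in either direction (22.7% higher and 21.7% lower). All 9 that were higher were nuclear. Of the 62 lower, 57 were nuclear and 5 mitochondrial. The medians were -0.26 for nuclear and -0.16 for mitochondrial members, beside 0.04 for all genes. Library totals alone gave 15 higher and 45 lower and moved the median of all genes to 0.16.

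Cox6a2 was the member most raised in the thalamus. It had 130 and 114 CPM there against 56.5 and 46.0 in the neocortex, with both thalamic values above both neocortical ones (log2 difference 1.25 ± 0.11, 2.38-fold, adjusted p = 8.0e-15). Ndufa10, an accessory subunit of complex I, had 380 and 386 against 239 and 234 (0.58 ± 0.07, adjusted p = 4.4e-10). Sdhc had 128 and 143 against 91.0 and 99.5. Cox4i2, an alternative form of subunit 4 known from lung and smooth muscle, had 8.26 and 6.57 against 3.18 and 3.39 (1.03 ± 0.32, adjusted p = 0.0060).

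Lower members came from every nuclear class. Atp5md, a small ATP synthase subunit, had 2019 and 1581 CPM in the thalamus against 2931 and 2208 (log2 difference -0.62 ± 0.08, adjusted p = 7.4e-10). Cox7a2l was lower by -0.61, Cox5b by -0.53 and Sdhb, an iron-sulfur subunit of complex II, by -0.50. Cox4i1, the common form of subunit 4, had 2128 and 1923 against 2666 and 2487 (-0.47 ± 0.07, adjusted p = 1.3e-07). Complex III was lower for 6 of 8 members. Of the mitochondrial genes, mt-Atp8 (-0.55) and mt-Nd5 (-0.36) were the lowest, and the 5 called also included mt-Nd4l, mt-Co2 and mt-Atp6. The calls of these last 3 were lost with library totals alone, without the low-count filter, without the mouse term and with areas taken from clusters.

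The reticular thalamus was set against the rest of the thalamus after its mitochondrial share had been seen to rank first. Its nuclear share was also above that of the thalamus in both mice, at 6.77% and 5.96% against 5.55% and 4.93%. The mitochondrial and the nuclear counts of this comparison therefore largely restate these shares and are no independent test of them. Here 81 of 104 members were higher and 3 lower, against 33.9% of all genes called in either direction (18.0% higher and 15.9% lower). The 81 comprised 11 of 13 mitochondrial and 70 of 91 nuclear members. The medians were 0.36 and 0.43, beside 0.03 for all genes. Complex I was higher for 32 of 36 nuclear members and complex V for 13 of 17. Library totals alone gave 61 higher and 5 lower. Of the 11 mitochondrial calls 3 were lost with library totals and 2 with areas taken from clusters. Without the mouse term 27 members were higher, and most of the mitochondrial calls were lost, that of mt-Cytb among them.

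mt-Cytb, the mitochondrial subunit of complex III, had 12724 and 15375 CPM in the reticular thalamus against 10419 and 12530 (log2 difference 0.45 ± 0.09, adjusted p = 8.8e-05). Cox4i1 had 2841 and 2643 against 2128 and 1923 (0.60 ± 0.09, adjusted p = 4.5e-08). Ndufaf2, an assembly factor of complex I, had 160 and 141 against 80.4 and 80.6 (1.05 ± 0.10, adjusted p = 7.7e-14). Both mice thus gave higher values in the reticular thalamus for this nuclear pair. Cox8b had 11.9 and 12.4 against 3.82 and 2.50 (2.14 ± 0.30, adjusted p = 1.3e-08). The 3 lower members were Cox6a2 (77.6 and 43.3 against 130 and 114; -0.91 ± 0.14, adjusted p = 2.7e-07), Ndufa10 at -0.45 and Ndufaf4 at -0.41.

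Cell markers moved too. All 8 oligodendrocyte markers were higher in the reticular thalamus, at 1.50% and 1.71% of UMIs against 0.823% and 0.837%. Fast-spiking interneuron markers were higher for 3 of 5, at 0.518% and 0.451% against 0.0821% and 0.0777%, and this list shares genes with the markers that defined the area. What part they have in the members' differences was not tested.

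The habenula, a pair of small nuclei above the thalamus that act on reward and aversion circuits, split the genomes. Against the thalamus, 11 of 13 mitochondrial genes were lower and none higher. Of the nuclear members 26 were higher and 14 lower. Over all genes 38.2% were called in either direction, 19.9% higher and 18.3% lower. The medians were -0.31 and 0.11, beside 0.03 for all genes. The mitochondrial calls were mostly kept with library totals alone, at 10 lower and none higher, while the nuclear members then gave 42 higher and 10 lower.

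mt-Co1 had 28408 and 26894 CPM in the habenula against 35244 and 34869 in the thalamus (log2 difference -0.42 ± 0.09, adjusted p = 0.00014). mt-Nd5 had 1103 and 1130 against 1419 and 1485 (-0.45 ± 0.09, adjusted p = 5.3e-05). Neither gene's ranges overlapped between the areas. Cox6a2 had 35.7 and 31.0 against 130 and 114, 3.85-fold lower (-1.95 ± 0.17, adjusted p = 9.3e-16). Cox6b2 had 37.3 and 28.6 against 7.03 and 5.70, 4.82-fold higher (2.27 ± 0.25, adjusted p = 7.1e-12). Ndufa10 was lower at -0.92 ± 0.10. Higher members of complex I included Ndufa7 at 0.46 and Ndufb4 at 0.44, and Atp5g2, a gene for the rotor ring, was higher at 0.50.

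The habenula lies beside the choroid plexus, and 7 of 8 choroid epithelium markers were higher there than in the thalamus (0.118% and 0.106% of UMIs against 0.0229% and 0.0101%). Cox8b, the member most raised in the plexus, had 7.60 and 4.22 in the habenula against 3.82 and 2.50 and was not called (0.79 ± 0.40). It rested on only 10 and 9 UMIs in the habenula. Of the other forms raised in the plexus, Cox6b2 had 37.3 and 28.6 in the habenula against 7.03 and 5.70 in the thalamus. Cox7a1 had 41.1 and 29.1 against 25.4 and 23.1. The part of plexus RNA in the habenula values was not tested. With areas taken from clusters in place of marker scores, 1 member was higher and 16 lower in the habenula, and Cox6a2 lost its call. Of the 11 mitochondrial calls 9 were lost and those of mt-Atp8 and mt-Nd5 were kept, with differences below 0 for all 13 genes. The calls of nuclear and mitochondrial members in the habenula thus depend on how the area was drawn.

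The hypothalamus, which governs hormones and drives, had more nuclear members higher than lower relative to the thalamus. There were 46 higher and 14 lower among nuclear members, and 3 higher and 1 lower among mitochondrial genes, against 49.3% of all genes called in either direction (25.5% higher and 23.8% lower). The nuclear median was 0.22 over both mice but 0.28 in mouse 1 and 0.02 in mouse 2. Library totals alone gave 38 members higher and 29 lower in all. Cox7a2l had 410 and 353 CPM against 242 and 251 (log2 difference 0.74 ± 0.09, adjusted p = 3.6e-10).

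Lower members in the hypothalamus included subunits of complexes I, IV and V. Cox6a2 had 29.3 and 31.4 against 130 and 114 (-1.87 ± 0.13, adjusted p = 2.3e-19). Atp5b, the catalytic beta subunit of ATP synthase, had 908 and 967 against 1436 and 1506 (-0.53 ± 0.08, adjusted p = 1.4e-07). Ndufs1, a core iron-sulfur subunit of complex I, was lower at -0.48, and Ndufa10 at -0.79. Each of these had both hypothalamic values below both thalamic ones. Cox8b had 0.820 and 0.938 against 3.82 and 2.50, its lowest mean level of the 15 areas. The mitochondrial genes called higher were mt-Nd6 (0.48), mt-Atp8 (0.44) and mt-Nd4l (0.41), and the one called lower was mt-Co1 (-0.26), a call that was lost with areas taken from clusters.

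White matter, made of myelinated axons and oligodendrocytes, set the genomes apart most widely. Against the neocortex 11 of 13 mitochondrial genes were higher and none lower, while 8 nuclear members were higher and 55 lower. Over all genes 49.0% were called in either direction, 27.1% higher and 21.9% lower. The medians were 0.26 and -0.25, beside 0.05 for all genes. These mitochondrial calls depend on the scaling and on how the area was drawn: library totals alone gave 4 higher and 2 lower, with mitochondrial and nuclear medians of 0.07 and -0.44, and moved the median of all genes to -0.14. The gap between the genomes stayed under both scalings. Areas taken from clusters gave 4 mitochondrial genes higher and none lower.

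mt-Nd2, a proton-pumping subunit of complex I, had 8623 and 12642 CPM in white matter against 6448 and 10783 in the neocortex (log2 difference 0.52 ± 0.08, adjusted p = 3.6e-08). White matter was higher within each mouse, though the mice differed more than the areas. mt-Nd4l was higher at 0.54 ± 0.07, mt-Nd6 at 0.50 and mt-Nd4 at 0.41, and these 4 genes were the ones still called higher with library totals alone and, in a separate fit, with areas taken from clusters. mt-Co1 had 35053 and 34962 against 33691 and 35918, and its call at 0.21 was lost with library totals alone. mt-Atp8 and mt-Nd3 were not called in the fit with TMM factors and were the 2 called lower without them.

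Every nuclear class but complex II had more members lower than higher. Complex III was lower for 8 of 8 members, complex V for 13 of 17 and complex I for 20 of 36, while complex II had 1 higher and 1 lower. Atp5md had 1316 and 1116 CPM against 2931 and 2208 (log2 difference -0.86 ± 0.08, adjusted p = 2.5e-14). Cox7b, a complex IV subunit, had 782 and 774 against 1607 and 1377 (-0.72 ± 0.08, adjusted p = 2.6e-12). Both stood lower in white matter in each mouse with no overlap. Ndufb6 was lower at -0.60, Uqcrb at -0.56 and Ndufa4, a subunit now assigned to complex IV, at -0.54.

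The rotor ring genes of ATP synthase did not go together. Atp5g3 was lower in white matter at -0.44 and Atp5g1 at -0.36, but Atp5g2 was higher, with 334 and 315 CPM against 270 and 282 (0.42 ± 0.07, adjusted p = 1.7e-06). The other nuclear members raised in white matter were mostly scarce alternative forms. Cox6b2 had 12.0 and 13.2 against 6.68 and 4.22 (1.52 ± 0.30, adjusted p = 1.4e-05). Cox4i2 had 7.30 and 7.87 against 3.18 and 3.39 (1.41 ± 0.35, adjusted p = 0.00051). Ndufa4l2, a paralog of Ndufa4, had 8.76 and 7.87 against 5.52 and 3.98 (1.07 ± 0.29, adjusted p = 0.0015).

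All 8 oligodendrocyte markers were higher in white matter, at 3.54% and 4.02% of UMIs, and all 10 neuron markers were lower, at 0.287% and 0.321%. The oligodendrocyte markers are also those that defined the area, so their rise follows from how white matter was drawn. Microglia markers were higher for 8 of 8 and endothelial and mural markers for 7 of 8. The part of each cell type in the members' differences was not tested.

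Genes of neighbouring pathways, listed apart from the set, did not always go with it. Of 19 genes of pyruvate dehydrogenase and the citric acid cycle, 9 were higher and 2 lower in the thalamus than in the neocortex, where the nuclear members were mostly lower and 44.3% of all genes were called. In the hypothalamus 1 of the 19 was higher and 14 lower than in the thalamus, where the nuclear members were more often higher and 49.3% of all genes were called. In white matter 12 of the 19 were lower and 2 higher, and of 16 glycolysis genes 13 were lower and 1 higher. Of 31 assembly factors outside the set, 11 were lower in white matter and none higher. Of all genes 27.1% were higher and 21.9% lower in that comparison.

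The hippocampi on either side of the image were compared because the receptor had been injected on 1 side in the study, although the labels do not say which side of the image that was. The fit over 4 hippocampal areas called 0 of 100 members tested (edgeR; 7 at an unadjusted p under 0.05, 1 mitochondrial and 6 nuclear; DESeq2 also 0), against 0.105% of 9549 genes in either direction (0.0419% higher on the left and 0.0628% lower). The differences of members ran from -0.24 for Sdhd to 0.15. In the dentate granule layer of mouse 2 the mitochondrial share was 12.6% on the image's left and 10.8% on its right. In that layer of mouse 1 the share was 9.53% and 9.52%. The CA2/CA3 layer of mouse 1 went the other way, with 10.3% on the left and 12.4% on the right. The CA1 layer and the neuropil of mouse 1 were also higher on the right. In mouse 2 the CA1 layer and the neuropil were higher on the left, and the CA2/CA3 layer on the right. The areas mirrored each other imperfectly, with 51.0% and 64.1% of placed spots meeting the same area across the midline.

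The mice differed in opposite directions for the genomes. Of the 13 mitochondrial genes, 12 had more CPM in mouse 2, with a median ratio of 1.17, and mt-Nd4l had fewer at 0.928. The ratio was 1.62 for mt-Nd6 and 1.58 for mt-Nd2, and it exceeded 1 in all 15 areas for 5 genes. Of 92 nuclear members with at least 200 UMIs, 18 were higher in mouse 2, with a median ratio of 0.901. In all 15 areas 34 nuclear members were lower in mouse 2, among them Atp5e at 0.717, Atp5md at 0.748 and Uqcr10 at 0.757, named after their values were seen. Over all 12646 genes with as many UMIs, 8186 were higher in mouse 2 and the median ratio was 1.04. How many of all genes kept 1 direction in all 15 areas is not given here, so the all-area counts are description only. With 1 section each, mouse, section, depth and genotype label cannot be told apart.

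**Figure D5:**
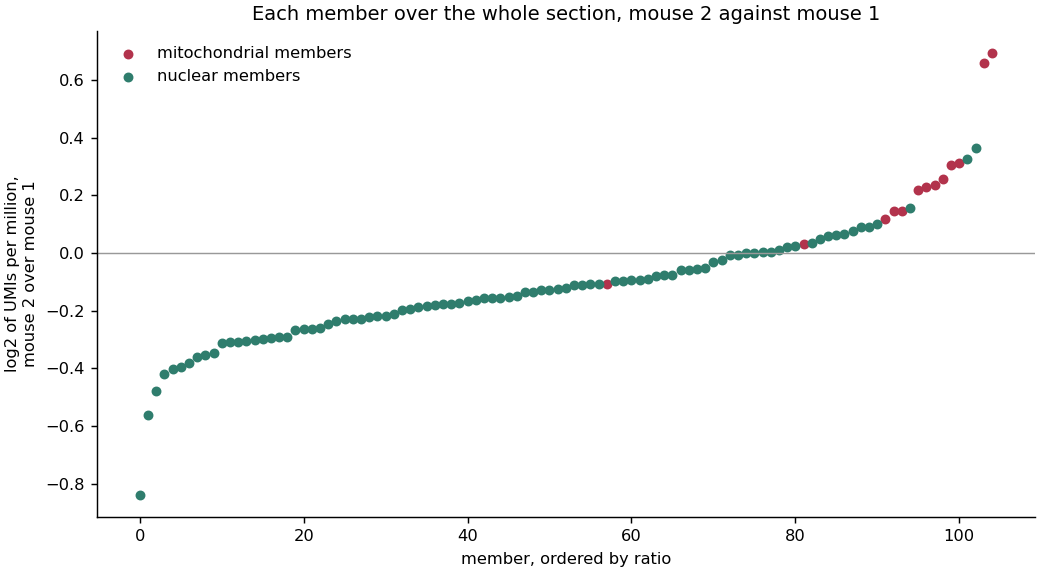
Ratio of CPM in mouse 2 over mouse 1 for each member over the whole section, as log2, with members ordered by the ratio along the horizontal axis. Red points are mitochondrial genes (12 of 13 above 0) and green points nuclear genes (18 of 92 above 0).

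From spot to spot the genomes were related differently in different areas. In white matter the mitochondrial share and the nuclear share of the remaining UMIs had a Pearson's r of 0.53 in mouse 1 and 0.72 in mouse 2, and in the thalamus 0.41 and 0.68. In the dentate granule layer r was -0.49 and -0.26. Over all spots it was 0.037 and 0.356. These values describe spots of 1 library that share depth and neighbouring cells. In the dentate granule layer, CA1, CA2/CA3 and neuropil the mitochondrial share fell with the spot's UMI count, with Spearman's rho from -0.82 to -0.40 over both mice. This fall was not confined to the hippocampus: rho was -0.47 and -0.59 in the habenula and -0.47 and -0.65 in the choroid plexus. In the reticular thalamus it was 0.10 and 0.25. Across the 15 areas the median UMI count per spot had a rho with the mitochondrial share of 0.35 and -0.29.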

How the data were processed

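Per the file headers, Space Ranger 1.3.1 produced the tables, and the submitters' processing notes name mm10. Each deposited value is a UMI count, a whole number for a gene in a spot. How reads were aligned, and with which annotation, is not stated in the labels. Members, gene lists and comparisons were chosen with earlier results of these data known.

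From the counts, spots with at least 500 UMIs were placed in the area whose markers had the highest mean z-score of log-scaled counts within the section, at a score of at least 0.5 and a lead of at least 0.1. UMIs were summed per mouse and area (15 areas in 2 mice, 30 libraries, 14 residual degrees of freedom). They were tested with edgeR 4.0.16 in R 4.3.3 (TMM factors, filterByExpr, quasi-likelihood fit with area and mouse), with Benjamini-Hochberg adjustment and a threshold of 0.05. Areas of a mouse come from the same section, so the mouse was kept as a replicate block. Standard errors come from this fit. Areas on either side of the image were fitted separately, with 16 libraries. Smallest and largest libraries held 437452 and 17198964 UMIs.

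Genes named with values include the up to 10 with the largest rise and the up to 10 with the largest fall past the threshold. For these, both mice had the same direction, and no test was run within a mouse. All mitochondrial members and the paralogous forms of subunits were also named. Members called in a count of 5 or fewer are also named. Motifs were searched in RefSeq promoter windows of GRCm38.p6; all 106 members matched a RefSeq gene by symbol or a single synonym. Alternatives were DESeq2 1.42.0, other scalings, filters, spot and area rules, fits without the mouse term, and Leiden clusters (scanpy 1.11.5, Python 3.11.15). On simulated counts of 11682 genes for the neuropil comparison, the test called 18% of genes changed by 1.25-fold, 48% at 1.5-fold, 82% at 2-fold and 98% at 4-fold, with 50 genes at each, and 0.0871% of unchanged genes. The simulation gave every gene the same spread and, apart from the changed genes, the same level in all areas of a mouse. The real counts differ in both, so these rates need not hold for them.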

Additional observations from a re-analysis of the deposited data

How the results depend on the processing

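The number of members called depended on the mouse term, the libraries fitted, the scaling and the way areas were drawn. In the fit with no replicate block, members called higher and lower fell from 16 to 2 (higher) in the neuropil, from 5 to 0 (higher) and 1 to 0 (lower) in the dentate layer, from 62 to 22 (lower) in the thalamus, from 26 to 4 and 25 to 9 in the habenula, from 49 to 17 (higher) in the hypothalamus, from 19 to 6 and 55 to 30 in white matter, from 17 to 10 and 41 to 22 in the choroid plexus, from 81 to 27 (higher) in the reticular thalamus and from 4 to 0 (higher) in layer 5. Library totals without TMM gave 6 lower in the neuropil (0 with TMM), 2 lower in the dentate layer (1), 15 higher in the thalamus (9), 42 higher in the habenula (26), 29 lower in the hypothalamus (15), 8 higher in white matter (19), 11 higher in the choroid plexus (17) and 5 lower in the reticular thalamus (3). With only the areas compared there were 1 lower in the neuropil, 11 higher and 5 lower in the dentate layer, 5 lower in the reticular thalamus and 58 higher in layer 5. A marker score of at least 1 gave 1 lower in the neuropil, 8 higher in the dentate layer and 12 higher in layer 5. DESeq2 gave 3 higher in the dentate layer and 14 in layer 5, the fit without a low-count filter 2 lower in the dentate layer and 11 higher in layer 5, scaling without the mt- members 10 in layer 5, and spots with at least 3000 UMIs 7 in layer 5. The causes were not tested. For these alternative fits, the clusters among them, the share of all genes called is not given, here or above. Their counts therefore show only how the calls of members depend on the processing.

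Leiden clusters in place of marker scores gave 38 lower in the neuropil, 18 higher and 7 lower in the dentate layer, 1 higher and 16 lower in the habenula and 10 higher in white matter; no cluster was given to the choroid plexus or to layer 5 alone, so neither comparison has a value there. In percent of UMIs the clusters moved the mitochondrial share to 8.18 in the dentate layer (10.7 by marker scores), 8.13 in CA1 (11.1) and 11.1 in ependyma (12.2), and the nuclear share to 5.09 in the habenula (5.89), 4.64 in white matter (4.31) and 5.47 in ependyma (4.85). A score of at least 1 moved the mitochondrial share of CA2/CA3 from 11.9 to 10.7. Without either replicate in turn these shares ran from 9.52 to 11.8 (mitochondrial, dentate layer), 10.1 to 12.0 (CA1), 11.2 to 12.6 (CA2/CA3), 11.4 to 12.9 (ependyma), and for nuclear members 4.60 to 5.11 (ependyma), 5.48 to 6.30 (habenula) and 4.08 to 4.54 (white matter). Directions of named members that turned were, under the clusters, Cox6a2 in the neuropil (0.81) and Cox7a2 (-0.0602), Ndufa4 (-0.30), Ndufa7 (-0.00789), Ndufc1 (-0.00016) and Uqcr11 (-0.0155) in the habenula, and, without replicate 1, Sdhd in the choroid plexus (-0.12, against 0.92 without replicate 2). With 2 mice, 1 section each, no spread between sections of a mouse was measured.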
